A study of Mus musculus with 7 samples.

Results

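The miR-26 family was described through the 5 probes, of 1874 on a custom Agilent small RNA array, whose target carries the miR-26 seed at bases 2 to 8. The members were chosen from probe sequence alone. Of the 5, 4 were well above background on all 7 arrays and were tested, and 1 was well above background on none. The study measured small RNA of mouse CD4 T cells bearing the transgenic receptor DO11.10, specific for a peptide of ovalbumin. Cells activated in an sOVA mouse (sOVA host, 3 arrays) or in a wild-type Balb/c mouse (WT host, with 2 arrays) were sorted as CD44 high 5 days after transfer. They came from DO11 Rag2-/- donors, and hosts received LPS-activated dendritic cells loaded with Ova peptide 24 h after the transfer. The sample titles call the WT host OVA immunized and the sOVA host sOVA immunized, so that any difference in immunization cannot be told apart from the host. Naive cells (2 arrays) were CD25 negative and CD44 low, from DO11.10 Rag2+/+ mice, as their titles say, although the source field of all 7 samples speaks of activated cells. Naive and activated cells therefore also differed in the donor's Rag2 genotype and in the sort. The tissue was pooled spleen and lymph nodes of Balb/c mice aged 6 to 8 weeks. Whether replicates came from separate pools of mice is not labelled, and p-values then reflect only how these samples vary, possibly for technical reasons. In bulk RNA, fewer cells of a type and less RNA per cell cannot be told apart.

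miRNAs are short RNAs that guide Argonaute proteins to messenger RNAs, largely through pairing of the seed. miR-26a and miR-26b are made from hairpins inside genes of the Ctdsp family, which encode phosphatases of the C-terminal domain of RNA polymerase II. The family is abundant in resting lymphocytes, is described as lower after T cell activation, and is known to repress EZH2, the methyltransferase of a Polycomb repressive complex.

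The RefSeq table (build GRCm38.p6) gave 2 mature mouse sequences with this seed, shown here with the seed in capitals because the seed defines the family and the remaining bases separate its members.
mmu-miR-26a-5p: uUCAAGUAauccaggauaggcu
mmu-miR-26b-5p: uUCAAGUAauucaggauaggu
The targets of the 5 probes, written as RNA, are given in the same way.
UC1004842: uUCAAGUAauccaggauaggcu
UC1004841: uUCAAGUAauccaggauaggc
UC1004845: uUCAAGUAauccaggauagguu
UC1004846: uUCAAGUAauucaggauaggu
UC1006417: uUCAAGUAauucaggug
UC1004842 matched the 22 bases of miR-26a-5p and UC1004841 its first 21. UC1004845 differed from miR-26a-5p by C21U alone, counting from 1 at the 5′ end, and matched no mature mouse sequence of the table. UC1004846 matched miR-26b-5p, which differs from miR-26a-5p by C11U and C21U and ends 1 base earlier. UC1006417, with a target of 17 bases, shared its first 15 bases with miR-26b-5p and matched no mature mouse sequence. The probes on the glass are complements of these targets with a leading G and a tail of 10 T, shown here for miR-26a and miR-26b with the tail in lower case.
UC1004842 probe: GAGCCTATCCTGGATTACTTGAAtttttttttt
UC1004846 probe: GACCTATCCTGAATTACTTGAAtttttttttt
The targets of these 2 probes differ by C11U and C21U and share their first 10 bases, and binding of either miRNA to the other's probe was not tested.

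The hairpins are shown with both mature arms in capitals, since the array also held probes to opposite arms.
Mir26a-1: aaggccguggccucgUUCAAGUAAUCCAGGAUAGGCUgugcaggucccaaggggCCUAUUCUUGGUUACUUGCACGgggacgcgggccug
Mir26a-2: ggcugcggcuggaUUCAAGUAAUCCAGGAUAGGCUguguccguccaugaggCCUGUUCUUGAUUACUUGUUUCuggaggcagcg
Mir26b: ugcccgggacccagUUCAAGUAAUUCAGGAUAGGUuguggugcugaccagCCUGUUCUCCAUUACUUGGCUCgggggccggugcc
In GRCm38.p6, all on the plus strand, Mir26a-1 lies at chr9:119031796-119031885 within Ctdspl, Mir26a-2 at chr10:126995530-126995613 within Ctdsp2, and Mir26b at chr1:74394310-74394394 within Ctdsp1. Both miR-26a hairpins give the same mature miR-26a-5p, so the array cannot separate them by that arm.

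Levels are log2 intensity relative to the 75th percentile of each array over the 253 probes detected on all 7 arrays, where detected means that at least 50% of a probe's spots were well above background. That percentile was an intensity of 2729 on sOVA host replicate 3 and of 3591 on WT host replicate 2, the dim arrays, and 9281 to 15743 on the other 5. Results are given with and without the dim arrays. Between 309 and 467 probes were detected per array, and no spot was saturated. Of the haematopoietic markers, miR-142a-3p, miR-142a-5p and miR-181a-5p were detected on all 7 arrays. The erythroid miR-451a stood at -1.09, -4.12 and 0.94 in the sOVA host, at -3.33 and -1.80 in the WT host and at -0.97 and -1.84 in naive cells, highest on sOVA host replicate 3. The other erythroid marker, miR-144-3p, was detected on no array. The myeloid miR-223-3p was between -6.60 and -4.99 in the sOVA host, at -5.59 and -6.34 in the WT host and at -3.04 and -2.80 in naive cells. Of 7 epithelial markers 5 were tested, of which 1 was called lower in the sOVA host and 2 in the WT host by limma, against 6.23% and 6.48% of all probes tested. Those called, miR-200a-3p in both hosts and miR-200b-3p in the WT host, were detected on the 2 naive arrays alone. They entered the test through naive cells, where they are high, which favours a lower call. The epithelial miR-205-5p, detected on 2 arrays and not tested, stood at -4.87, -4.08 and -6.49 in the sOVA host, at -9.39 and -8.39 in the WT host and at -9.29 and -10.59 in naive cells. It was highest on sOVA host replicates 1 and 2. None of 4 endothelial and stromal markers was tested. The part of other cells in the results below was not tested.

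miR-26b-5p was lower in activated cells than in naive cells in both hosts. Its probe (UC1004846) had an intensity of 3741, 4091 and 839 in the sOVA host, of 5823 and 1713 in the WT host, and of 20295 and 22083 in naive cells. Its levels relative to the array were -1.40, -1.44 and -1.70 in the sOVA host, -0.67 and -1.07 in the WT host, and 0.77 and 0.49 in naive cells. Both naive arrays lay above every activated array, and the sOVA host arrays lay below both WT host arrays. The group means were -1.51 ± 0.16 (SD, n = 3) in the sOVA host, -0.87 ± 0.28 (SD, n = 2) in the WT host and 0.63 ± 0.20 (SD, n = 2) in naive cells. In the sOVA host miR-26b-5p fell by 2.15 ± 0.27 (SE) on the log2 scale, 4.42-fold (limma, adjusted p = 0.00423). In the WT host it fell by 1.50 ± 0.29 (SE), 2.83-fold (limma, adjusted p = 0.015). Both comparisons use the same naive arrays. The value was alike in both rows of the slide. Within rows 1 and 2 the change was -2.19 in each row in the sOVA host and -1.45 and -1.56 in the WT host.

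The call for miR-26b-5p in the sOVA host was lost without naive replicate 1 and kept without each of the 6 other arrays, among them naive replicate 2 (-2.29, limma, adjusted p = 0.0427). The call in the WT host was lost without any of the 4 arrays compared. Without naive replicate 1 the adjusted p (limma) was 0.0851 for the sOVA host and 0.195 for the WT host, with changes of -2.05 and -1.38. Without naive replicate 2, WT host replicate 1 or WT host replicate 2 the WT host change was -1.64, -1.70 and -1.30, with an adjusted p (limma) of 0.0798, 0.0533 and 0.104. The direction held in all 18 alternatives for each host. Filters and merging leave the fitted change as it was, as do both blocks in the WT host, so those say nothing about direction. With at least 2 arrays in each group the adjusted p (limma) ranged over 0.00209 to 0.0767 for the sOVA host. For the WT host it ranged over 0.00657 to 0.312. Without both dim arrays, which leaves 1 WT host array, the changes were -2.07 in the sOVA host and -1.31 in the WT host.

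miR-26a-5p was also lower in activated than in naive arrays, by fitted changes that did not pass. The 22-base probe (UC1004842) had an intensity of 17048, 20977 and 978 in the sOVA host, of 8119 and 1730 in the WT host, and of 36698 and 44337 in naive cells. Relative to the array this was 0.79, 0.92 and -1.48 in the sOVA host, -0.19 and -1.05 in the WT host, and 1.63 and 1.49 in naive cells. Both naive arrays were above all activated arrays. The hosts overlapped, because 2 sOVA host arrays lay above the WT host arrays and the third lay below them. Means were 0.08 ± 1.35 (SD, n = 3) in the sOVA host, -0.62 ± 0.61 (SD, n = 2) in the WT host and 1.56 ± 0.10 (SD, n = 2) in naive cells. The log2 change was -1.49 ± 0.77 (SE) in the sOVA host, with a 95% interval of -3.35 to 0.38 (limma, adjusted p = 0.191). In the WT host it was -2.18 ± 0.84 (SE), with an interval of -4.22 to -0.14 (limma, adjusted p = 0.114).

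The 21-base probe of miR-26a-5p (UC1004841) repeated this pattern, with levels of 0.62, 0.72 and -1.72 in the sOVA host, -0.34 and -1.27 in the WT host, and 1.54 and 1.39 in naive cells. Its changes were -1.59 in the sOVA host and -2.27 in the WT host (limma, adjusted p = 0.177 and 0.114). It reads the same RNA as the 22-base probe and is no independent replicate. Within each array the 22-base probe exceeded the 21-base probe by 0.09 to 0.24 log2 units. UC1004845, which differs from miR-26a-5p at position 21 alone, had levels of -0.31, -0.25 and -2.04 in the sOVA host, -0.94 and -1.50 in the WT host, and 0.75 and 0.53 in naive cells. Its order of arrays was that of the miR-26a-5p probes, and what bound it was not tested. Its changes were -1.50 in the sOVA host and -1.86 in the WT host (limma, adjusted p = 0.103 and 0.0944).

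For miR-26a-5p, sOVA host replicate 3 stood apart from replicates 1 and 2. Without sOVA host replicate 3, the changes of the 22-base and 21-base probes were -0.72 and -0.81 in the sOVA host (limma, adjusted p = 0.143 and 0.121), less than 1 log2 unit. In the WT host they were -2.20 and -2.28 and then passed (limma, adjusted p = 0.0043 for each), as did UC1004845 at -1.87 (limma, adjusted p = 0.00404). The WT host and naive arrays fitted were the same as in the main fit. The spread is pooled over all arrays fitted, and the SE of the 22-base probe's WT host change went from 0.84 to 0.34. UC1004845 also passed in the sOVA host without that replicate, at -0.93 (limma, adjusted p = 0.0466). In that setting 184 of 407 probes tested were called in the WT host and 159 of 407 in the sOVA host. Without both dim arrays 1 WT host array is left, which is assumed to vary like the other groups. The changes of the 3 probes in that fit are therefore given with no call. There the changes of UC1004842, UC1004841 and UC1004845 were -0.73, -0.81 and -0.94 in the sOVA host and -1.76, -1.81 and -1.58 in the WT host. Within slide rows 1 and 2 the difference of the 22-base probe was -0.78 and -2.97 in the sOVA host, where row 2 holds replicate 3 alone, and -1.82 and -2.55 in the WT host. With slide row as a block the 3 probes passed in both hosts (limma, adjusted p between 0.0245 and 0.0497). There 157 of 401 probes tested were called in the sOVA host and 130 in the WT host. With at least 2 arrays in each group the adjusted p (limma) of the 22-base probe was 0.0497 to 0.274 in the sOVA host. In the WT host it was 0.0043 to 0.312. The change was negative in all 18 alternatives for each host, of which filters and merging leave the change as it was.

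Against all probes, 93 of 401 tested, or 23.2%, were called in the sOVA host and 81, or 20.2%, in the WT host. The lower direction held 6.23% and 6.48% of the probes tested, against 1 of 4 tested members in each host. Groups that did not overlap with the activated arrays lower made up 30.4% of probes in the sOVA host and 32.2% in the WT host, and 4 of 4 members in each. The 4 are not independent, since 2 read the same RNA and the others are nearly identical in sequence. The members' changes lay in the lower part of those of all probes. In the sOVA host 9.73% of probes had a lower change than the 21-base miR-26a-5p probe and 3.24% a lower change than miR-26b-5p, while in the WT host the shares were 5.24% and 12.2%. The median change of all probes was 0.11 in the sOVA host and 0.24 in the WT host. With the percentile taken over all probes in place of the 253, that median became -0.71 and -0.28. The members' changes then ranged over -2.96 to -2.30 in the sOVA host and over -2.78 to -2.02 in the WT host. The counts depended on single arrays. In the sOVA host 15, 18 and 159 probes were called without naive replicate 1, naive replicate 2 and sOVA host replicate 3. In the WT host 17, 26, 40, 28 and 184 were called without naive replicate 1, naive replicate 2, WT host replicate 1, WT host replicate 2 and sOVA host replicate 3.

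The comparison of hosts asks whether activation against antigen in an sOVA host leaves a different small RNA profile. None of 401 probes was called by limma (0%), and 47 had an unadjusted p under 0.05. miR-26b-5p had a log2 change of -0.64 between the sOVA host and the WT host, with a 95% interval of -1.29 to 0.01 (limma, adjusted p = 0.412). Its groups did not overlap, with the sOVA host lower, as for 18% of probes tested. The miR-26a-5p probes had changes of the opposite sign, 0.70 for the 22-base probe with an interval of -1.16 to 2.56 and 0.68 for the 21-base probe with an interval of -1.23 to 2.59 (limma, adjusted p = 0.801 for each). UC1004845 had a change of 0.35, with an interval of -1.08 to 1.79 (limma, adjusted p = 0.851). The intervals reach differences of more than 1 log2 unit, so the tests do not show that the hosts are alike. Without sOVA host replicate 3, 77 of 407 probes tested were called, among them both miR-26a-5p probes at 1.47 (limma, adjusted p = 0.0342 and 0.0378). miR-26b-5p then had -0.55 (limma, adjusted p = 0.196). Without both dim arrays, which leaves 1 WT host array, the changes of the 22-base probe and of miR-26b-5p were 1.03 and -0.76. With at least 2 arrays in each group the adjusted p (limma) ranged over 0.0342 to 0.983 for the 22-base probe. For miR-26b-5p it ranged over 0.168 to 0.896.

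The difference between the miR-26a-5p and miR-26b-5p probes within an array needs no scaling between arrays. It was examined after the levels had been seen. Its size reflects the probes as well as the RNA, so it is read across arrays and not as a ratio of the miRNAs. The 22-base miR-26a-5p probe exceeded the miR-26b-5p probe by 2.19, 2.36 and 0.22 log2 units in the sOVA host, by 0.48 and 0.02 in the WT host, and by 0.85 and 1.01 in naive cells. On 2 of 3 sOVA host arrays the difference was more than 1 log2 unit above that of the naive arrays, while on both WT host arrays and on sOVA host replicate 3 it was below it. The mean was 1.59 ± 1.19 (SD, n = 3) in the sOVA host, 0.25 ± 0.33 (SD, n = 2) in the WT host and 0.93 ± 0.11 (SD, n = 2) in naive cells. An exact two-sided permutation test gave p = 0.3 for the sOVA host against the WT host, where the smallest p that 3 against 2 arrays allows is 0.1. The same exact test gave p = 0.4 for the sOVA host against naive cells, where 0.1 is again the smallest, and p = 0.333 for the WT host against naive cells, the smallest that 2 against 2 allows. None of the 15 such tests of probe pairs could reach 0.05, so they do not bear on whether the groups differ. The difference of the sOVA host from the WT host was 1.34, and 2.03 without sOVA host replicate 3. That of the sOVA host from naive cells was 0.66, and 0.36, 0.27 and 1.34 without sOVA host replicate 1, 2 and 3. That of the WT host from naive cells was -0.68, and -0.45 without WT host replicate 2. Both dim arrays had small differences, and relative to the array's 75th percentile sOVA host replicate 3 also had the most miR-451a, while miR-205-5p was highest on sOVA host replicates 1 and 2, where the difference was largest. The part of array brightness and of other cells in this value was not tested.

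Over the 7 arrays the SD between spots was at most 0.16 log2 units for the 22-base probe and at most 0.08 for the 21-base probe and at most 0.07 for miR-26b-5p. Between the naive arrays the SD of the 22-base probe was 0.10, less than between its spots there, while in the sOVA host and the WT host it was 1.35 and 0.61 between arrays. A spot of miR-26b-5p on WT host replicate 1, at an intensity of 2497 where the 6 others had 5498 to 6323, was flagged as an outlier by the scanner software and left out.

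The short target UC1006417 and the opposite arms were dim. UC1006417 was well above background on 0 of 7 arrays, with intensities of 10.2 to 35.4, although it shares its first 15 bases with miR-26b-5p. The probe of miR-26a-1-3p (UC1004843), the opposite arm of Mir26a-1, was likewise detected on 0 of 7 arrays. The probe of miR-26b-3p (UC1004847), the opposite arm of Mir26b, was detected on both naive arrays and on no activated array. Its intensity was 36.4, 31.9 and 16.3 in the sOVA host, 59.0 and 16.5 in the WT host, and 111 and 132 in naive cells. The naive levels, at -6.74 and -6.90, lay under the averaged bound of the activated arrays, -6.02 in the sOVA host and -6.70 in the WT host. No fold can therefore be given for this arm (limma, adjusted p = 0.0664 and 0.246). By array, the lowest level well above background was below both naive levels on sOVA host replicate 2 and WT host replicate 1, at -7.03 and -7.31. It was above them on sOVA host replicates 1 and 3 and on WT host replicate 2, at -5.82, -5.20 and -6.11. No probe matched miR-26a-2-3p.

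The miRNAs whose profile was most like that of miR-26a-5p were miR-29a-3p, let-7b-5p, let-7c-5p, miR-350-3p and miR-29b-3p. Likeness was the root mean square difference of mean-centred levels from the 22-base probe over the 7 arrays, among 102 mouse miRNAs detected on all arrays. It was 0.38 for miR-29a-3p, 0.52 for let-7b-5p, 0.62 for let-7c-5p, 0.62 for miR-350-3p and 0.65 for miR-29b-3p, against a median of 1.34 over the 102. miR-26b-5p was at 0.86, and 15 of the 102 miRNAs were closer to miR-26a-5p than it was. Of the 5, miR-350-3p had passing changes of -1.83 in the sOVA host and -1.64 in the WT host (limma, adjusted p = 0.0148 and 0.0242). let-7b-5p fell by 1.93 in the sOVA host (limma, adjusted p = 0.0496). The nearest, miR-29a-3p, had changes of -1.75 in the sOVA host and -1.81 in the WT host (limma, adjusted p = 0.0632 and 0.0843).

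Among 20 miRNAs known to be high in resting T cells or reported lower after activation, without miR-26, 16 were tested, each by its brightest probe. By limma, 0 were called in the sOVA host and 1 fell in the WT host, where 6.23% and 6.48% of all probes were called lower, with a median log2 change of -0.79 and -0.62 against 0.11 and 0.24 over all probes. The member that fell was miR-181a-5p, which tunes T cell receptor sensitivity, at -3.34 (limma, adjusted p = 0.0118), and its change in the sOVA host was -1.64 (limma, adjusted p = 0.0708). Unadjusted, 175 probes in the sOVA host comparison and 153 in the WT host comparison had a p under 0.05. Of 13 tested among 15 miRNAs reported to rise with activation, 10 rose in the sOVA host and 9 in the WT host. Of the 13, miR-96-5p, miR-182-5p, miR-183-5p and miR-212-3p were not detected on naive replicate 1. They entered the test through activated arrays, where they are high, which favours a call in that direction. Over all probes 17% and 13.7% were called higher. miR-21a-5p, a broadly induced miRNA, rose by 2.84 in the sOVA host and by 3.37 in the WT host (limma, adjusted p = 0.00187 and 0.00138). Both lists were chosen with earlier results of these data known.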

How the data were processed

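Total RNA (250 ng per the series' design text) was labelled with Cy3 and read on 1 slide with 1 scan time. The scanner files hold spot intensity, background-subtracted and detrended within each array by Agilent Feature Extraction without normalization from array to array, per the file headers (version 9.5.1.1, whereas the submitters' processing notes name 10.6). The deposited table of the series holds log2 values whose processing is not given in the sources used here. It served only for counts of unnamed rows. Targets were the reverse complement of each probe without its last 10 T and a leading G, and were named through RefSeq mature sequences where one begins with the other and lengths differ by at most 3 (607 of 1874 probes matched 1 mouse miRNA, 4 matched several and 1263 none). Control spots and spots flagged as outliers were left out, the mean log2 intensity was taken over the 7 spots of each probe, and arrays were scaled to the 75th percentile of the 253 probes detected throughout. Any probe detected on all arrays of 1 group or more (401 probes) entered the test with limma (version 3.58.1, R 4.3.3; lmFit and eBayes, group means over all 7 arrays), with Benjamini-Hochberg adjustment and a threshold of 0.05. Probes were kept separate, so targets that extend one another count more than once. The fit was tested on simulated data. The number of arrays limits the precision. Named were all miR-26 seed probes, the opposite arms, the 5 nearest profiles, and up to 4 of each list with the smallest p, of which a part is printed. The lists and the cell markers were read by the brightest probe of each miRNA. The rule for members uses probe sequence alone, but the rule and the lists were set with earlier results of these data known. Scaling, background correction, spot averaging, filter, merging, blocks and left-out arrays were varied.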

Additional observations from a re-analysis of the deposited data

How the results depend on the processing

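Every fitted change of a miR-26 seed probe kept its sign under every alternative run, 17 for UC1004841, which merging dropped, and 18 for the other probes. Filters and merging cannot move a fitted change, so not all of these bear on the sign. With no filter on dim probes, where 1874 were tested, miR-26b-5p was no longer called in the sOVA host (-2.15) or the WT host (-1.50), nor with scaling to all probes in the WT host (-2.02). In the sOVA host UC1004841, UC1004842 and UC1004845 were called with slide row as a block (-1.80, -1.69 and -1.66). Their changes without both dim arrays were -0.81, -0.73 and -0.94. In the WT host they were called with slide row as a block or with the replicate block (-2.27, -2.18 and -1.86 under each). Only the sOVA host has a replicate 3, so the replicate block gives that array its own term. That setting is therefore close to leaving the array out. Without both dim arrays the WT host changes were -1.81, -1.76 and -1.58. The cause of the calls with slide row as a block was not tested. Leaving out single arrays gave, for these 3 probes and miR-26b-5p, -2.01 to -0.81, -1.91 to -0.72, -1.81 to -0.93 and -2.29 to -2.05 in the sOVA host. It gave -2.73 to -1.81, -2.61 to -1.75, -2.14 to -1.57 and -1.70 to -1.30 in the WT host, and 0.22 to 1.47, 0.27 to 1.47, 0.05 to 0.93 and -0.84 to -0.45 between hosts. The within-array difference of UC1004842 from UC1004846 kept its sign in each of 11 alternatives, chosen after seeing the data. Some of the 11 leave out only an array of a group not compared, which cannot change it. The difference ranged over 0.27 to 1.34 for the sOVA host against naive cells. For the WT host against naive cells it was -0.92 to -0.45, and between hosts 0.96 to 2.03. The replicate numbers were not used as pairs in the main fit. Deviations of same-numbered arrays correlated between -0.61 and 0.33. Deviations in a group of 2 arrays mirror each other, so these values cannot decide whether the arrays were paired. With the replicate block 131 of 401 probes tested were called in the sOVA host, 165 in the WT host and 36 between hosts.

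In the sOVA host, where 93 probes were called (68 higher, 25 lower), scaling to all probes gave 29 higher and 49 lower, and quantile normalization 44 higher and 35 lower. There 34 were called with no filter, 41 among probes detected on all arrays, 157 with slide row as a block, 188 without both dim arrays, 213 in the deposited table and 15 to 159 with single arrays left out. In the WT host, where 81 were called (55 higher, 26 lower), 49 were called with scaling to all probes (25 higher, 24 lower), 51 with normexp background correction, 22 with no filter, 29 among probes detected on all arrays, 130 with slide row as a block, 140 without both dim arrays, 225 in the deposited table and 17 to 184 with single arrays left out. Between hosts, where limma called 0 and 47 had an unadjusted p under 0.05, 54 were called without both dim arrays, 126 in the deposited table and 0 to 77 with single arrays left out. Which probes were shared between settings was not counted.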
